A study of Mus musculus with 4 samples.

Results

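Axon guidance ligands and receptors were examined in cells sorted from the dentate gyrus of Fmr1 knockout and wild type mice. The group holds 68 protein-coding genes out of 52636 genes in the deposited table. They were matched by symbol, with no measured value in the rule, as the semaphorins, plexins, neuropilins, ephrins, Eph receptors, Slits, Robos, netrins, Dcc and Unc5 receptors. They comprise 34 ligands and 34 receptors in 12 families.

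The 4 libraries came from mice of 6 to 7 weeks on a C57BL/6 background, 2 labelled wild type (called here wild type libraries 1 and 2) and 2 labelled Fmr1-/y (knockout libraries 1 and 2). The wild type mice were littermates of Fmr1-/y mice that carried Dcx-DsRed, a red fluorescent reporter of doublecortin (Dcx), the microtubule protein that marks immature neurons. Fmr1 encodes FMRP, an RNA-binding protein whose loss underlies fragile X syndrome. The protocol gives 10000 living cells per sample; it mentions a sort of all living cells as well as one of reporter-positive cells, and the title and design of the series speak of the second. The labels do not name the knockout allele and do not say whether replicates were separate animals, so the p-values rest on the spread of these 4 libraries alone, part of which may be technical.

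Axon guidance genes encode cues and the surface receptors that read them. Semaphorins signal through plexins, the secreted class 3 semaphorins mostly with neuropilins as co-receptors. Ephrins signal through Eph receptor kinases and can also signal back into the cell that carries them. Slits act through Robo receptors, and netrins through Dcc (attraction) and Unc5 (repulsion). In the dentate gyrus these systems are known for guiding and layering mossy fibres, the axons of granule neurons, and for shaping dendritic spines.

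Totals ran from 5478224 to 7213759 counts per library. Fmr1 itself had 73.1 and 91.6 CPM (TMM-scaled counts relative to library size) in wild type libraries 1 and 2, and 43.4 and 29.7 CPM in knockout libraries 1 and 2, lower in both knockout libraries as the labels imply. Markers of astrocytes and radial glia-like cells, the oligodendrocyte lineage and mature granule neurons were abundant. Those of microglia, endothelial cells and pericytes, and GABAergic neurons summed to less, with 7 microglial markers at 16.8 to 58.5 CPM. Both libraries numbered 2 were above both numbered 1 for 6 of 6 oligodendrocyte precursor and 7 of 7 myelinating oligodendrocyte markers. The summed CPM of 10 immature granule neuron markers (Dcx and Sox11 among them) was 2401 and 1285 in wild type and 2810 and 1464 in knockout libraries. That of 6 oligodendrocyte precursor markers (Pdgfra and Cspg4 among them) was 453 and 3467 in wild type and 732 and 4298 in knockout libraries. In such bulk libraries fewer cells of a type and less RNA per cell cannot be told apart.

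Of the 68 guidance genes, 61 had at least 1 count in every library and 63 had enough counts to be tested. The 5 others were Epha1, Epha2, Robo4, Sema3f and Sema3g. To compare genes with each other, CPM was divided by the gene length in kilobases. On that scale the 10 highest members held 51.0% and 47.9% of the group's summed level in the wild type libraries and 48.4% and 49.9% in the knockout libraries.

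**Figure D1:**
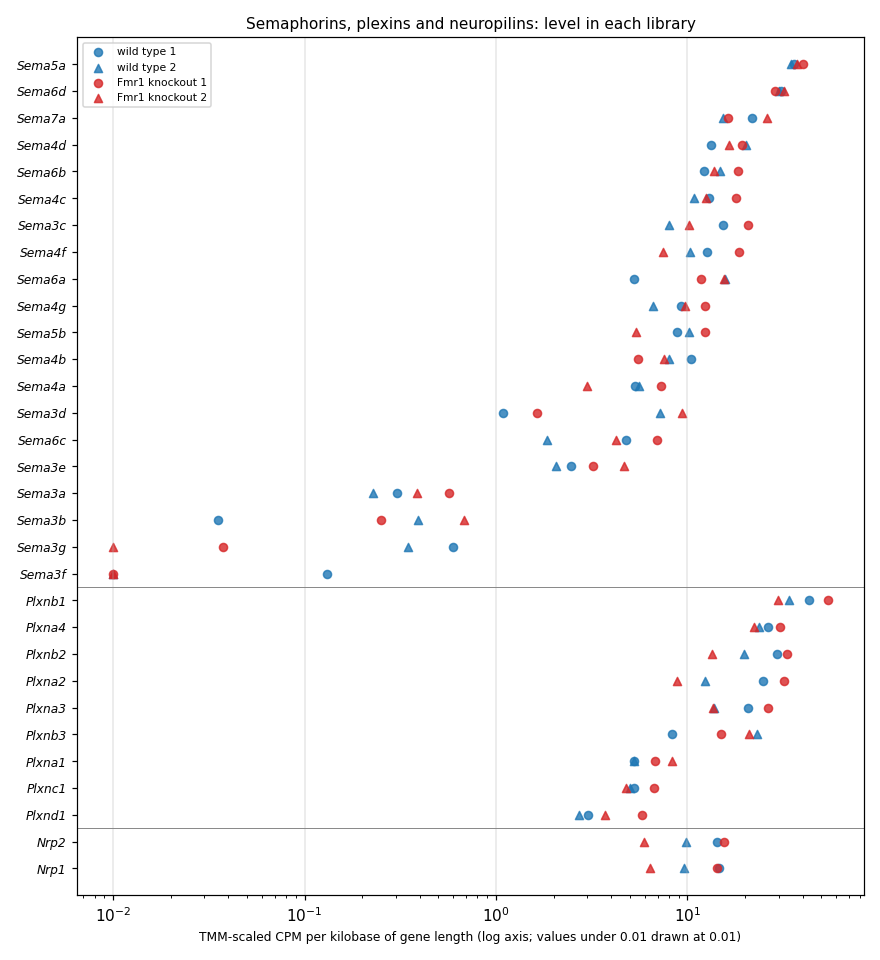
Level of each semaphorin, plexin and neuropilin in the 4 libraries, as TMM-scaled CPM per kilobase on a log axis, with values under 0.01 drawn at 0.01. Colours mark genotype and shapes the library number; Sema5a leads the semaphorins and Plxnb1 the plexins, and 4 class 3 semaphorins (Sema3a, Sema3b, Sema3f, Sema3g) have means below 1.

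The ligand with the highest level per kilobase was Efnb3 (ENSMUSG00000003934.5, GRCm38 chromosome 11, 69554092 to 69560205). It encodes ephrin-B3, a transmembrane ephrin. Its level was 72.2 and 93.5 CPM per kilobase in wild type libraries 1 and 2 and 64.2 and 93.5 in knockout libraries 1 and 2. In each genotype library 2 was the higher, and the genotypes overlapped. Efnb3 made up 81.4% to 92.4% of the summed level of the 3 ephrin-B genes. In CPM it had 264 ± 48.0 (wild type) and 251 ± 65.9 (knockout; SD, n = 2 each), for a log2 fold change (knockout minus wild type) of -0.07, whose standard error (SE) was 0.31.

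Epha4 (ENSMUSG00000026235.14, chromosome 1, 77367185 to 77515088) stood next in the order and first among receptors. It encodes a receptor that binds ephrins of both classes. It had wild type values of 570.1 and 395 CPM and knockout values of 701 and 538 CPM, and the genotypes overlapped. The log2 fold change was 0.36 (SE 0.30) and an unadjusted p of 0.277. Epha4 held 61.9% to 73.5% of the summed level of the 9 EphA genes, far ahead of Epha7, which had 154 and 139 CPM (wild type) against 169 and 175 CPM (knockout). Both knockout values of Epha7 lay above both wild type values, with a log2 fold change of 0.23 and a standard error of 0.27.

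Below these, the order was Plxnb1, Sema5a, Sema6d, Plxna4, Plxnb2, Sema7a, Plxna2 and Slit1. Neighbours in the order were mostly not separated. Of 67 neighbouring pairs, only Sema5a and Sema6d had ranges over the 4 libraries that did not overlap, with Sema5a at 34.7 to 40.3 CPM per kilobase and Sema6d at no more than 31.9. Ranked by CPM without division by length, 8 of the first 10 members were the same, but their order changed. Epha4 then had rank 1, Sema5a rank 2 and Efnb3 rank 7.

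Among semaphorins, the membrane-bound Sema5a and Sema6d varied least between libraries. Sema5a, which is known in mouse to limit spine number on granule neurons, had 391 and 375 CPM in the wild type pair against 436 and 405 CPM in the knockout pair. Sema6d had wild type values of 324 and 318 CPM and knockout values of 304 and 337 CPM. Their log2 fold changes were 0.13 and -0.004, with standard errors of 0.25 and 0.26. Sema7a, which is anchored to the membrane by a lipid and binds integrins and plexin C1, had 71.9 and 50.5 CPM (wild type) against 53.6 and 85.7 CPM (knockout), and the genotypes overlapped. Sema4d, the ligand of plexin B1, likewise overlapped, at 85.8 and 131 CPM against 124 and 106 CPM.

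The secreted class 3 semaphorins were lower, apart from Sema3c. Sema3c had 109 and 57.5 CPM in the wild type pair against 148 and 72.6 CPM in the knockout pair, with library 1 the higher in both genotypes. Sema3d ran the other way, with wild type values of 9.32 and 61.6 CPM and knockout values of 14.2 and 80.4 CPM. These genes lie near each other on chromosome 5, with Sema3d at 12383385 to 12588948, Sema3a at 13125414 to 13602565, Sema3e at 14025276 to 14256689 and Sema3c at 17574281 to 17730268. All 5 tested class 3 genes had estimates above 0 between genotypes, with a median log2 fold change of 0.80. Their standard errors ran from 0.44 for Sema3e to 1.97 for Sema3b, and none passed the test. The class holds 7 genes, and the 2 left out by the filter had more counts in wild type. Sema3g had 16 and 11 counts in wild type against 1 and 0 in knockout libraries, and Sema3f 4 and 0 against 0 and 0.

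Plexins were the receptors with the highest summed level, at 167 and 139.8 CPM per kilobase in wild type and 210.4 and 126 in knockout libraries. Per kilobase Plxnb1, the receptor of Sema4d, led the family in each library with 23.6% to 26.0% of it. In CPM without division by length it did not lead in any library. Plxna2 was above it in libraries 1 (427 CPM in wild type, 548 CPM in knockout), and Plxna4 in libraries 2. Plxnb1 had 416 and 325 CPM (wild type) against 519.9 and 285 CPM (knockout), so library 1 was the higher in both genotypes and the genotypes overlapped. Plxna4, a receptor for class 6 semaphorins that mossy fibres use, had 374 and 336 CPM in the wild type pair against 430.4 and 316 CPM in the knockout pair. The log2 fold changes of 0.12 for Plxnb1 and 0.07 for Plxna4 were smaller than their standard errors of 0.36 and 0.28.

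The neuropilins were measured at nearly equal levels per kilobase. Nrp1, the co-receptor of Sema3a, had wild type values of 144 and 93.6 CPM and knockout values of 139.7 and 62.2 CPM. Nrp2, the co-receptor of Sema3f, had 170.0 and 116 CPM (wild type) against 184 and 70.5 CPM (knockout). For both genes the 2 libraries numbered 1 were above the 2 numbered 2, and genotypes overlapped. The named ligands Sema3a and Sema3f were scarce. Sema3a had 3.17 to 7.86 CPM, and Sema3f 4 counts in 1 wild type library against 0 in the other 3 libraries. Other class 3 semaphorins were higher, with 57.5 to 148 CPM for Sema3c and 9.32 to 80.4 CPM for Sema3d.

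**Figure D2:**
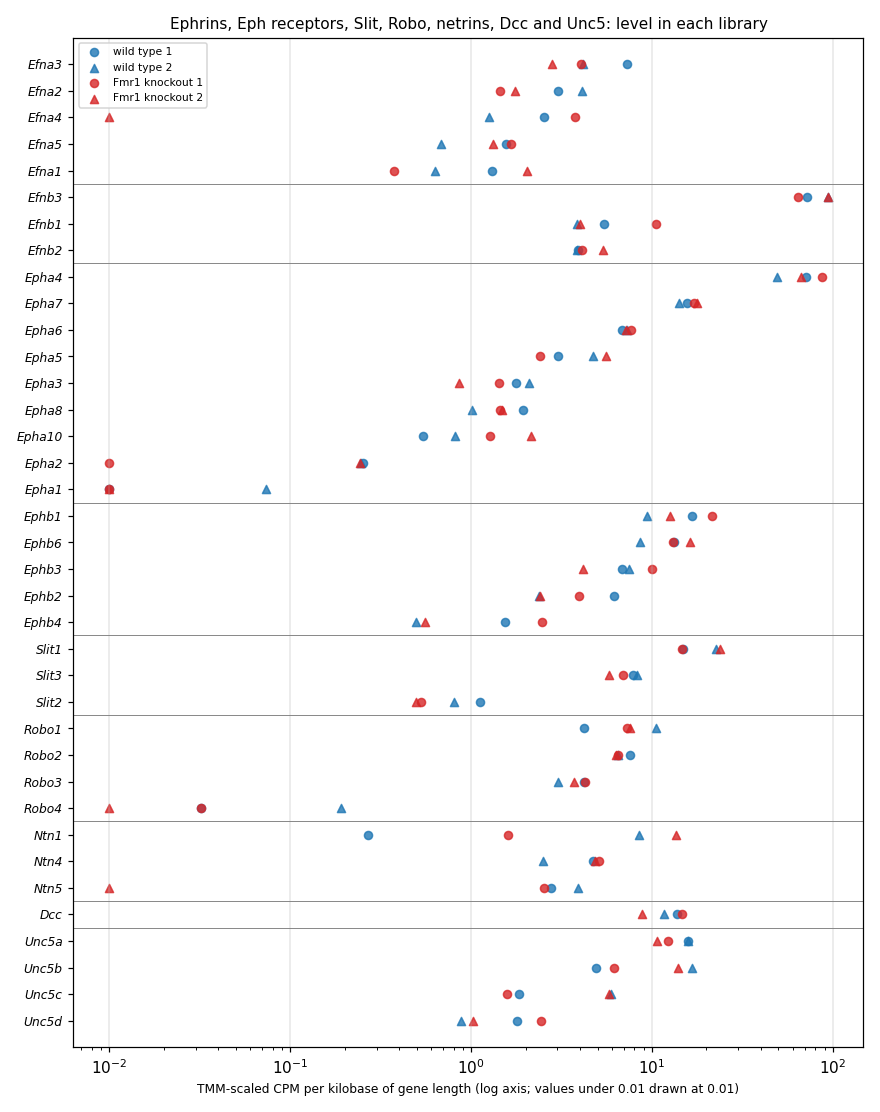
Level of each ephrin, Eph receptor, Slit, Robo, netrin, Dcc and Unc5 gene in the 4 libraries, as TMM-scaled CPM per kilobase on a log axis, with values under 0.01 drawn at 0.01. Efnb3 and Epha4 stand highest, and Ntn1 spans 0.270 to 13.6.

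EphB receptors bind mainly ephrin-Bs. Ephb1 had 116 and 65.4 CPM in the wild type pair against 151 and 88.0 CPM in the knockout pair, with a log2 fold change of 0.39 and a standard error of 0.41. Ephb6, which lacks kinase activity, had wild type values of 49.7 and 32.4 CPM and knockout values of 49.5 and 61.2 CPM. Per kilobase, Ephb1 led the family in 3 libraries and Ephb6 in knockout library 2. In CPM without division by length, Ephb1 led in each library. The other ephrin-B genes were much lower than Efnb3: Efnb1 had 18.6 and 13.2 CPM (wild type) against 36.6 and 13.8 CPM (knockout), with knockout library 1 standing above the rest.

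The ephrin-A genes, whose products are held to the membrane by a lipid anchor, were low throughout. Efna3 led the family, with 17.6 and 10.1 CPM in the wild type pair against 9.91 and 6.80 CPM in the knockout pair. Efna2 had wild type values of 6.44 and 8.78 CPM and knockout values of 3.07 and 3.73 CPM. In both genes the knockout values were all below the wild type values, but the standard errors of 0.68 and 0.96 left the log2 fold changes of -0.73 and -1.16 uncalled, with unadjusted p values of 0.318 and 0.266. The summed level of the 5 ephrin-A genes was 7.91 to 15.7 CPM per kilobase, beside 79.4 to 118 for the EphA receptors they bind.

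Slit1 was the main Slit, with 62.4% to 79.0% of the family. It had 88.3 and 133 CPM (wild type) against 86.3 and 140.3 CPM (knockout), nearly the same pair of values in each genotype. Slit3 had 47.6 and 50.3 CPM in the wild type pair against 41.8 and 35.2 CPM in the knockout pair, and both knockout values were the lower. Of their receptors, Robo2 had wild type values of 124 and 108 CPM and knockout values of 107 and 104 CPM, while Robo1 had 31.9 and 79.2 CPM (wild type) against 55.2 and 57.2 CPM (knockout). Wild type library 1 was the lowest for Robo1 and the highest for Robo2. Dcc, the attractive netrin receptor, had 111 and 94.3 CPM in the wild type pair against 118 and 71.5 CPM in the knockout pair, so the genotypes overlapped.

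Between genotypes no guidance gene was called. With edgeR's quasi-likelihood test and a Benjamini-Hochberg adjusted p under 0.05 as the threshold, 0 of 63 passed, beside 0% of all 14673 tested genes (0 genes). At an unadjusted p under 0.05 the count was again 0, beside 1.05% of all tested genes. DESeq2 and limma voom also called 0 of 63 and had 0 at an unadjusted p under 0.05. The smallest unadjusted p was 0.109 and the smallest adjusted p 0.9999.

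Estimates stood above 0 for 40 of 63 members, beside 51.6% of all genes, with a median log2 fold change of 0.13 against 0.02 over all genes. The median depended on single libraries, being 0.02 both without wild type library 2 and without knockout library 1 and 0.21 without knockout library 2. By role, 21 of 32 ligands and 19 of 31 receptors had estimates above 0, with medians of 0.22 and 0.08. By family, estimates were above 0 for 14 of 18 semaphorins and 8 of 9 plexins, and for 0 of 2 neuropilins and 1 of 4 Unc5 receptors.

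For 10 members both knockout values exceeded both wild type values, beside 11.8% of all genes. These were Epha7, Epha10, Efnb2, Ntn4, Plxna1, Plxnd1, Sema3a, Sema3e, Sema4g and Sema5a. Both were below for 9 members, beside 13.7% of all genes, namely Epha3, Robo2, Slit2, Slit3, Unc5a, Efna2, Efna3, Ntn5 and Sema4b. Both shares among the members are close to those among all genes.

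**Figure D3:**
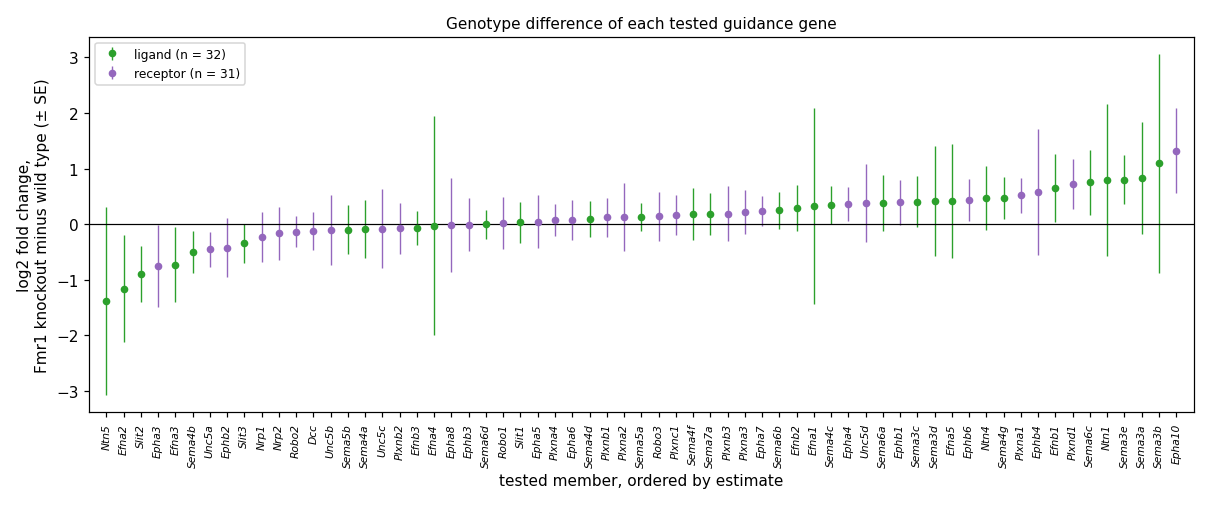
Log2 fold change (knockout minus wild type, edgeR) of the 63 tested guidance genes in order of their estimates, with bars of 1 standard error; colour marks ligands and receptors. Estimates run from -1.38 (Ntn5) to 1.32 (Epha10), and 0 genes were called.

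The 8 members with the smallest unadjusted p are described next, none of them called. Sema3e, a secreted semaphorin that binds plexin D1 directly, had wild type values of 22.9 and 19.2 CPM and knockout values of 29.7 and 43.6 CPM. Its log2 fold change was 0.80 (SE 0.44) and an unadjusted p of 0.109. Plxnd1, its receptor, had 22.0 and 19.7 CPM (wild type) against 42.2 and 27.1 CPM (knockout), a log2 fold change of 0.73 (SE 0.45). For both ligand and receptor the knockout libraries were the higher, although the knockout library that was highest differed: library 2 for Sema3e and library 1 for Plxnd1.

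Slit2 had 28.5 and 20.4 CPM in the wild type pair against 13.5 and 12.6 CPM in the knockout pair, a log2 fold change of -0.90 (SE 0.50) and an unadjusted p of 0.116. Its paralogue Slit3 was also on the lower side, at -0.35 (SE 0.35), while Slit1 was at 0.03 (SE 0.37). Unc5a, a netrin receptor of neurons, had wild type values of 65.6 and 65.8 CPM and knockout values of 51.4 and 44.6 CPM. Its replicates were close together in each genotype, at 65.7 ± 0.141 and 48.0 ± 4.85 CPM (SD, n = 2 each), and its log2 fold change was -0.45 (SE 0.32). The spread that edgeR fitted for it was set by all genes and not by these close replicates alone.

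Epha10, an Eph receptor without kinase activity, had 3.90 and 5.90 CPM (wild type) against 9.22 and 15.4 CPM (knockout), the highest estimate of the group at 1.32 (SE 0.77). Plxna1, a plexin that pairs with neuropilins, had 48.0 and 47.5 CPM in the wild type pair against 61.7 and 75.2 CPM in the knockout pair, a log2 fold change of 0.52 (SE 0.32). Sema4b had wild type values of 59.2 and 45.5 CPM and knockout values of 31.3 and 42.8 CPM, and its lowest wild type and highest knockout values were close. Sema6c had 28.5 and 10.9 CPM (wild type) against 41.2 and 25.3 CPM (knockout), so its genotypes overlapped. The unadjusted p values of these 4 genes ran from 0.129 to 0.239.

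Efnb1, Plxna3 and Plxnb3 lie on the X chromosome, as Fmr1 does. Plxna3 (74329066 to 74344689) had 163 and 108 CPM in the wild type pair against 208 and 107 CPM in the knockout pair. Plxnb3 (73757090 to 73772514) had wild type values of 54.1 and 151 CPM and knockout values of 97.0 and 137 CPM. Genotypes overlapped for all 3 genes, with log2 fold changes of 0.66 (Efnb1), 0.22 (Plxna3) and 0.19 (Plxnb3) and standard errors of 0.61, 0.40 and 0.49.

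Among the untested members, Sema3g and Robo4 are named after their values were seen. Sema3g, a semaphorin of blood vessels, had 16 and 11 reads counted in wild type libraries, against 1 and 0 in knockouts. Pooled per genotype, the wild type to knockout ratio, scaled by library size, was 25.3, with an exact 95% interval of 4.17 to 1035. Robo4, a Robo of endothelial cells, had 1 and 7 in wild type libraries against 1 and 0 in knockouts, a ratio of 7.49 with an interval of 1.004 to 332. That ratio rests on wild type library 2; without it 1 count in wild type stands against 1 in knockouts. These intervals cover counting error only. In the edgeR fit without a filter, which took in all 68 members, 0 had an unadjusted p under 0.05, so neither gene passed there. The endothelial marker Cldn5 had 1.53 and 6.62 CPM (wild type) against 0 and 0.162 CPM (knockout), whereas the endothelial marker Pecam1 had 0 and 2.02 CPM in the wild type pair against 2.56 and 8.43 CPM in the knockout pair. The part of endothelial RNA in these counts was not tested.

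Differences between library numbers were larger than those between genotypes for several members. Both libraries numbered 1 were above both numbered 2 for 22 of 63 members, beside 25.9% of all genes, and the reverse held for 11, beside 26.0% of all genes. Of 31 receptors, 15 were higher in both libraries numbered 1, 5 in both numbered 2 and 11 overlapped; of 32 ligands the counts were 7, 6 and 19. Receptors and ligands were not tested against each other. The summed receptor level was 1.19 and 0.936 times the summed ligand level in wild type libraries 1 and 2, and 1.28 and 0.889 times in knockout libraries 1 and 2. The labels do not say what, if anything, libraries with the same number share, and the difference by number was not tested.

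**Figure D4:**
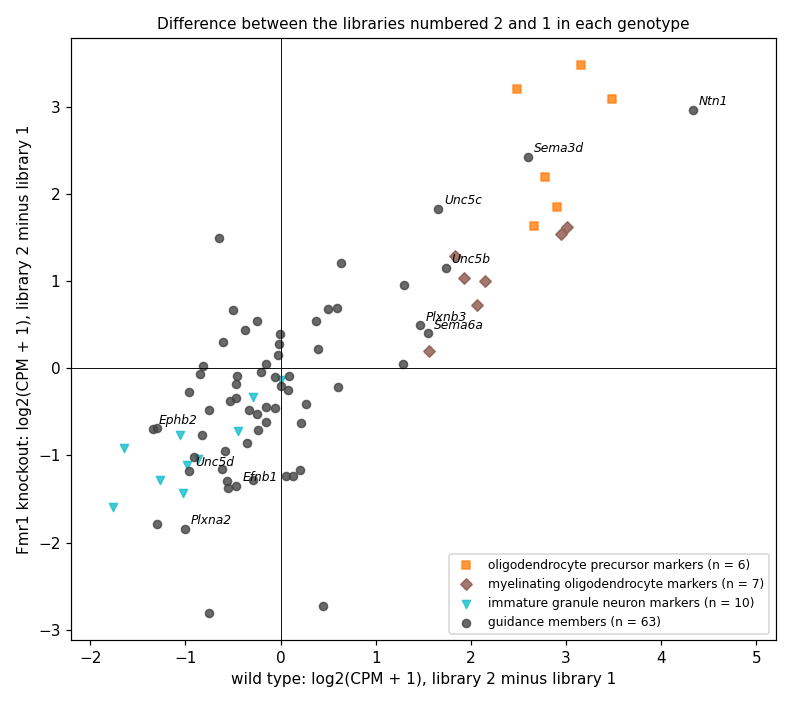
Each point is a tested gene, placed by the difference in log2(CPM + 1) between the libraries numbered 2 and 1, in wild type (x axis) and in knockout (y axis). Ntn1, Sema3d, Unc5b and Unc5c lie in the upper right, as the oligodendrocyte lineage markers do, with Ntn1 further right than any of these. Plxna2, Ephb2, Unc5d and Efnb1 lie in the lower left, where most immature granule neuron markers lie. Markers of other cell types are not drawn. Of these, Camk2a (mature neurons) and Gad2 (GABAergic neurons) would lie in the upper right, and Slc1a3 (astrocytes) and Mki67 (dividing cells) in the lower left.

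Among members with a mean of at least 10 CPM, the widest difference by number was that of Ntn1. Ntn1 (ENSMUSG00000020902.12, chromosome 11, 68209364 to 68400823), the founding netrin, had wild type values of 1.70 and 53.3 CPM and knockout values of 10.1 and 85.5 CPM, from 10, 370, 59 and 528 counts. Its receptors Unc5b and Unc5c were likewise higher in both libraries numbered 2, whereas Dcc was higher in both numbered 1 and Unc5a overlapped. Within a number, knockout was above wild type in both numbers for Ntn1, only in libraries 1 for Unc5b and in neither for Unc5c. Unc5b had 30.7 and 104 CPM (wild type) against 38.4 and 86.7 CPM (knockout). Unc5c had 35.3 and 113 CPM in the wild type pair against 30.4 and 110.3 CPM in the knockout pair. Unc5d ran the other way, with wild type values of 16.6 and 8.06 CPM and knockout values of 22.5 and 9.40 CPM. Between genotypes the log2 fold changes of Unc5b, Unc5c and Unc5d were -0.11, -0.08 and 0.37, with standard errors of 0.63, 0.71 and 0.70, and that of Ntn1 was 0.79 (SE 1.37).

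The leading netrin and the leading Unc5 receptor differed between library numbers and were the same in both genotypes. Ntn4, a netrin that binds laminin, held 60.9% and 55.2% of the summed netrin level in wild type and knockout libraries 1, and Ntn1 held 57.0% and 73.8% in libraries 2. Ntn4 itself had 17.6 and 9.36 CPM (wild type) against 19.1 and 18.1 CPM (knockout). In the Unc5 family, Unc5a held 64.8% and 54.8% in wild type and knockout libraries 1, and Unc5b held 42.5% and 44.2% in libraries 2. Unc5a varied little by number, so the change of leader per kilobase came with the level of Unc5b. In CPM without division by length, Unc5c and not Unc5b led in libraries 2. There Unc5c had 113 CPM (wild type) and 110.3 CPM (knockout), against 104 and 86.7 CPM for Unc5b.

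**Figure D5:**
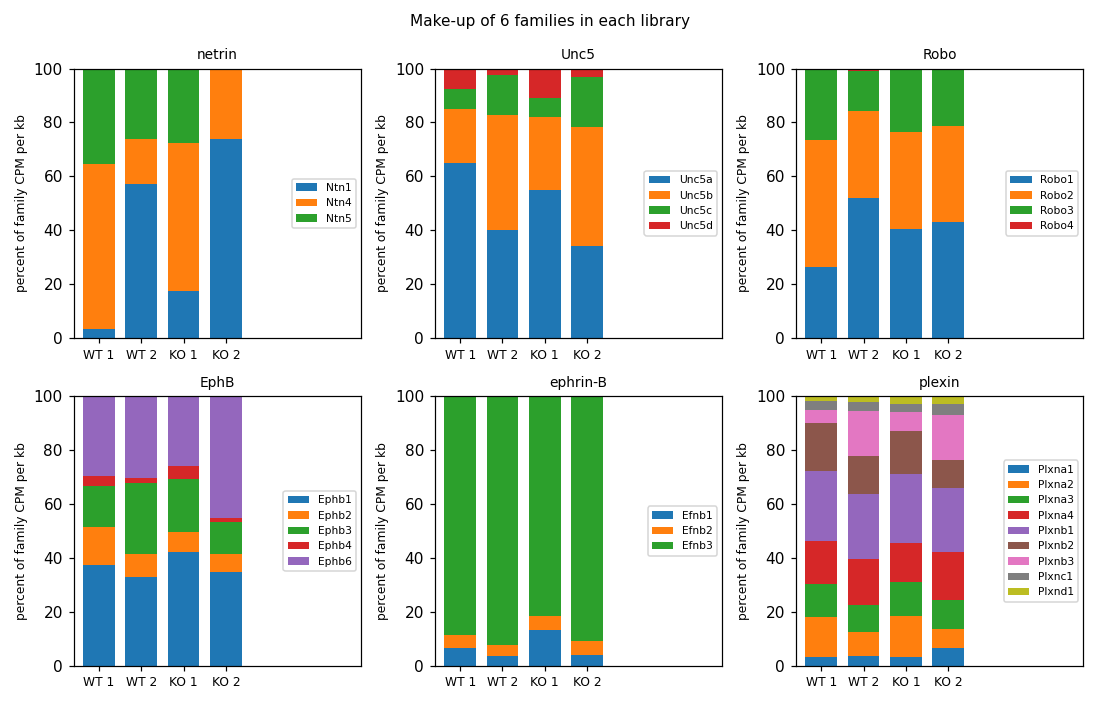
Share of each member in the summed CPM per kilobase of its family, for 6 families, in wild type (WT) and knockout (KO) libraries 1 and 2. Efnb3 holds over 81% of the ephrin-B level in each library, whereas Ntn1 holds 3.49% and 57.0% of the netrin level in WT 1 and 2, and 17.3% and 73.8% in KO 1 and 2.

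Outside the netrin pathway, Sema3d was 6.61 times as high in library 2 as in library 1 in wild type and 5.67 times in knockout. Plxnb3, a plexin known from oligodendrocytes, was 2.79 times as high in wild type and 1.41 times in knockout. Sema6a is a ligand of A plexins, chosen for mention with its values known; it had 46.3 and 137 CPM in the wild type pair against 104 and 137 CPM in the knockout pair. Wild type library 1 was the lowest for Plxnb3 and Sema6a. These values stood beside oligodendrocyte precursor and myelin markers: Pdgfra had wild type values of 132 and 1186 CPM and knockout values of 133 and 1485 CPM, and the summed level of 7 myelinating oligodendrocyte markers was 1916 and 11200 CPM (wild type) against 4032 and 10221 CPM (knockout). Of 7 mature granule neuron markers, 5 were higher in both libraries numbered 2, 1 (Prox1) in both numbered 1, and 1 overlapped. Prox1 was 0.617 times as high in library 2 as in library 1 in wild type and 0.506 times in knockout. The summed levels of the 7 were 1802 and 2647 CPM (wild type) against 1914 and 3740 CPM (knockout). Of these, Camk2a, a kinase of mature neurons named with its values known, had 774 and 1777 CPM (wild type) against 819 and 2954 CPM (knockout). In each genotype Camk2a rose by more than the sum did, so the rest of the list together was lower in library 2. Within that rest only Prox1 was lower. Calb1, Dsp, Plk5, Rasgrp1 and Camk4 were each higher in library 2 than in library 1 in both genotypes. The part of any of these cells in the levels of Ntn1, Sema3d, Unc5b, Unc5c, Plxnb3 and Sema6a was not tested.

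On the other side stood Plxna2 (ENSMUSG00000026640.12, chromosome 1, 194618218 to 194816869), a plexin of granule neurons and a receptor for Sema5a and class 6 semaphorins. It had 427 and 213 CPM in the wild type pair against 548 and 152 CPM in the knockout pair. Ephb2 had wild type values of 77.6 and 30.0 CPM and knockout values of 49.9 and 30.5 CPM. Library 1 was the higher in each genotype for both genes, as it was for Efnb1. Dcx, the gene behind the reporter, had 330 and 166 CPM (wild type) against 456 and 211 CPM (knockout), and Mki67, which dividing cells express, had 103 and 43.9 CPM in the wild type pair against 149 and 36.3 CPM in the knockout pair. The summed level of 8 astrocyte and radial glia-like markers was also higher in libraries 1, at 10022 and 8508 CPM (wild type) against 10367 and 7085 CPM (knockout). Their part in the levels of these receptors was not tested.

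The upstream sequence of 4 of these genes is shown, because they are the members with the widest differences by library number in each direction for which RefSeq promoter entries were at hand. Each is the 250 bases before the transcription start (RefSeq, GRCm38.p6), 5′ to 3′ on the strand of the gene. The windows of Plxna2 and Unc5c lie inside the GENCODE gene spans, which start further upstream, at 194618218 and 141465216. Capitals mark matches on either strand to 3 motifs: the GC box bound by Sp1 (GGGCGG or CCGCCC), the E box CAGCTG bound by proneural helix-loop-helix factors, and ACAAAG (or CTTTGT), a core read by SOX factors. Plxna2 (chr1:194619579-194619828, plus strand) and Ephb2 (chr4:136836013-136836262, minus strand) were higher in libraries 1, and Sema3d (chr5:12382916-12383165, plus strand) and Unc5c (chr3:141465314-141465563, plus strand) in libraries 2.
Plxna2: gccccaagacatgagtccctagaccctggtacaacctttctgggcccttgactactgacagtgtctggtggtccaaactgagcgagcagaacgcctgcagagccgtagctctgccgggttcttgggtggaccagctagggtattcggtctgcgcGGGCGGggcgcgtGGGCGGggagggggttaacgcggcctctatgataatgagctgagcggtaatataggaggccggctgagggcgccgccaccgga
Ephb2: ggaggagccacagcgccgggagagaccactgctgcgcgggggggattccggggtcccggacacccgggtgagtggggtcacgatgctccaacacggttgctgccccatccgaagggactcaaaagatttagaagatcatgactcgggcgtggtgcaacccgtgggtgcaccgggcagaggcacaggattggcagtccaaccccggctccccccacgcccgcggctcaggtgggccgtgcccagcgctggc
Sema3d: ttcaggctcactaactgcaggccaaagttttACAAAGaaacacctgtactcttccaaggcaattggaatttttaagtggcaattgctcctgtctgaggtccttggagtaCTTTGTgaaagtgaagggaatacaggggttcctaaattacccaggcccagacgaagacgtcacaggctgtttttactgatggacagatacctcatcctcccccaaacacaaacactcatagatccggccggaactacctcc
Unc5c: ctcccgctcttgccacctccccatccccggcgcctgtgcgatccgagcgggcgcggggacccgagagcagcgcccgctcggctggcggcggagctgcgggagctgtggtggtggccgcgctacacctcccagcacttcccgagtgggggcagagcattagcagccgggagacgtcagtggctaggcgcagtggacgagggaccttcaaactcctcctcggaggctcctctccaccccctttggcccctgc

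The Plxna2 window held 2 GC boxes, the Sema3d window 2 SOX motifs, and the Ephb2 and Unc5c windows none of the 3 motifs. Their GC content was 62.8%, 46.8%, 68.4% and 71.2% in that order. Promoter entries were found for 58 of the 68 members, 74 in all. A GC box stood in 70.3% of these and in 32.7% of all 32851 promoters of the same length, with a median GC content of 64.4% and 52.4%. The comparison set, of 27025 genes, was not limited to protein-coding genes, whereas the members are all protein-coding. The E box stood in 16.2% of member promoters and 13.0% of all, and the SOX motif in 9.46% and 16.5%. Such matches describe the letters only and are not binding sites.

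Other genes of the guidance pathways were taken from a list of 74 co-receptors, further cues and intracellular effectors, of which 73 were tested. None was called higher or lower (0 of 73, edgeR), 0 had an unadjusted p under 0.05, and 42 had estimates above 0, which is 57.5%, beside 51.6% of all genes. Their median log2 fold change was 0.08, against 0.02 over all genes. Of the 73, 12 (16.4%) had both knockout values above both wild type values and 3 (4.11%) had both below, beside 11.8% and 13.7% of all genes. The most abundant per kilobase was Dpysl2, a CRMP protein that relays semaphorin signals to microtubules, with 367 and 491 CPM (wild type) against 465 and 620.2 CPM (knockout). Cfl1, the actin-severing cofilin, had 282 and 225 CPM in the wild type pair against 244 and 157 CPM in the knockout pair. Srgap3, which binds Robo receptors, had wild type values of 771 and 645 CPM and knockout values of 849.9 and 775 CPM. Genotypes overlapped for the first pair and not for Srgap3, and their log2 fold changes were 0.34, -0.34 and 0.20 with standard errors of 0.30, 0.32 and 0.26.

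The partners with the smallest unadjusted p were Rgmb, Arhgef11 and Mical3, with p values of 0.232, 0.236 and 0.237 (edgeR). Rgmb, a ligand of the netrin receptor relative neogenin, had 11.2 and 23.9 CPM (wild type) against 26.0 and 31.1 CPM (knockout). Arhgef11, a RhoA activator bound by B plexins, had 93.9 and 91.4 CPM in the wild type pair against 113 and 125 CPM in the knockout pair. Mical3, a relative of the enzyme that takes actin filaments apart downstream of plexins, had wild type values of 178 and 189.5 CPM and knockout values of 255 and 213 CPM. In all 3 the knockout libraries were the higher, with log2 fold changes of 0.70, 0.36 and 0.35 and standard errors of 0.53, 0.28 and 0.27.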

How the data were processed

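RNA sequencing of sorted dentate gyrus cells gave 4 libraries, 2 per genotype. Raw read counts per gene, one column per library, and gene lengths were deposited by the authors. Per the submitters' processing notes, STAR 2.5.3a placed the reads on GRCm38. The annotation was from Gencode, per the labels' protocols. How reads were counted, and whether strand was used, is not given in the sources used here; overlapping and antisense genes are therefore uncertain. Unassigned value columns numbered 0. GENCODE M21 (GRCm38), chosen here, gave gene positions. Members, lists and rules for named genes were chosen with earlier results of these data known.

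The filterByExpr filter kept 14673 genes. Scaling was by TMM, and genotype was the only term of the fit in edgeR 4.0.16 (R 4.3.3) with estimateDisp and robust glmQLFit, tested two-sided by glmQLFTest. Adjustment was by Benjamini-Hochberg over every tested gene, with calls under 0.05. A standard error is the absolute log2 fold change over the root of F. Counts of replicate libraries did not match within sampling noise (chi-square per degree of freedom 38.2 in wild type, 54.2 in knockout). The common biological coefficient of variation was 0.538. Genes with few counts were compared as pooled ratios, scaled by library size, with exact 95% intervals. The test was run first on simulated counts for these genes. Those counts were given less spread than these libraries have, so they do not show how the test performs at the spread found here.

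Named with values are the 2 members with the highest level per kilobase in each family, the 8 with the smallest p, and the 4 with the largest ratio between library numbers in each direction among those with a mean of at least 10 CPM. Other named members illustrate a family or were chosen after their values were seen. Alternatives covered DESeq2 1.42.0, limma 3.58.1 (voom), further scalings and filters, the replicate number as a block, a threshold of 0.1 and leaving out each library.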

Additional observations from a re-analysis of the deposited data

How the results depend on the processing

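The count of members called was 0 under every scaling, filter and tool run, with the replicate block, in each fit without 1 library and at an adjusted p under 0.1. Among 48 named genes, 477 of 528 comparisons with an alternative kept the direction and the side of the threshold, 51 turned direction, and 0 became calls. Of those 51, 43 came from leaving out a library: 11 and 10 without wild type libraries 1 and 2, and 13 and 9 without knockout libraries 1 and 2. Their log2 fold changes over these fits ran from -0.52 to 0.18 for Dcc, -0.21 to 1.18 for Efnb1, -0.38 to 0.17 for Efnb3, -0.045 to 0.86 for Ephb1, -0.96 to 0.42 for Ephb2, -0.93 to 0.22 for Nrp1, -1.02 to 0.35 for Nrp2 and -1.46 to 4.79 for Ntn1. They ran from -1.07 to 0.76 for Plxna2, -0.34 to 0.61 for Plxna3, -0.16 to 0.27 for Plxna4, -0.37 to 0.48 for Plxnb1, -0.37 to 1.10 for Plxnb3, -0.50 to 0.80 for Robo1, -0.20 to 0.93 for Sema3c and -1.34 to 2.33 for Sema3d. They ran from -0.19 to 0.41 for Sema4d, -0.20 to 1.36 for Sema6a, -0.093 to 0.068 for Sema6d, -0.20 to 0.49 for Sema7a, -0.38 to 0.35 for Slit1, -0.83 to 1.02 for Unc5b, -1.30 to 0.99 for Unc5c and -0.39 to 0.98 for Unc5d. Without turning, estimates moved over these fits from 0.21 to 1.59 for Sema6c, 0.25 to 1.34 for Rgmb, -1.09 to -0.28 for Efna3, 0.07 to 0.99 for Ntn4, 0.37 to 1.001 for Plxnd1, 0.11 to 0.64 for Epha4, 0.14 to 0.77 for Ephb6, -0.69 to -0.07 for Cfl1, 0.10 to 0.55 for Dpysl2, 0.06 to 0.33 for Srgap3, 0.49 to 1.05 for Sema3e, -0.76 to -0.29 for Sema4b, 0.08 to 0.17 for Sema5a, 0.14 to 0.30 for Epha7, 0.22 to 0.46 for Mical3 and -0.25 to -0.04 for Robo2. With library size alone as the scaling, Robo1 turned to -0.014 and Slit1 to -0.035. Sema6d turned to 0.0098 with DESeq2 size factors and with DESeq2. Under limma voom, Plxna2 turned to -0.059 and Unc5b to 0.0002. The causes were not tested.

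The replicate numbers are shared between genotypes, but the labels do not say that they pair libraries. Over the tested genes, the difference in log2(CPM + 1) between wild type libraries 1 and 2 correlated at 0.410 with that between the knockout libraries. With the replicate block, Plxna2 was -0.057 and Unc5b 0.016, 10 genes of all tested were called (7 higher, 3 lower), 0 members among them, and 4 members had an unadjusted p under 0.05, against 5.30% of all genes. Without wild type library 2, 3 members were higher at that p, against 1.33% of all genes; without knockout library 1, 3 were lower, against 6.57%; without wild type library 1 or knockout library 2 the count was 0. A fit without a library leaves 1 arm with a single sample, assumed to vary like the other genotype. With 2 libraries per genotype and a coefficient of variation of 0.538, a missed threshold does not show equal levels.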
